A study of Mus musculus with 4 samples.

Results

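Mitosis, spindle and condensin genes are the genes whose products condense the chromosomes, build the spindle, hold chromosomes to it and split the cell. The list holds 52 genes, from Mki67 and Top2a to the kinesins and condensin subunits, taken by symbol from the 38124 gene IDs of the deposited count tables. All 52 matched, all had counts in every library, and all were among the 10694 genes tested, those that had 20 or more counts in 2 or more of the libraries.

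RNA sequencing was done on intestinal epithelial cells sorted by GFP from C57BL/6 mice, males aged 71 weeks that were fed the control diet, which the labels call WT or normal, or a high-fat diet (HFD). The GFP-high cells are labelled intestinal stem cells and the GFP-low cells progenitors. Each library pooled the sorted cells of 2 to 5 mice, and there was 1 library for each diet and fraction, 4 in all, so no group has a replicate. The sources used here do not give the gene that drives GFP or the composition of the diets, nor whether the same mice supplied the GFP-high and GFP-low cells of a diet. The series asks how the high-fat diet affects stem cells and progenitors, and the design compares the fractions, the diets, and the diets within each fraction. The spread behind the p-values below is that between these 4 libraries, moderated across genes, and may be technical.

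Entry into mitosis is driven by cyclin-dependent kinase 1 bound to cyclins A and B, with the Polo and Aurora kinases. Condensin and topoisomerase II compact and untangle the chromosomes, kinetochores attach them to spindle microtubules, and the spindle checkpoint holds back the anaphase-promoting complex until all are attached. In the intestinal crypt, both the stem cells at the base and the progenitors above them divide, while the differentiated cells of the villus do not. Many of these genes are transcribed late in the cell cycle from promoters with a cell cycle genes homology region (CHR), bound by the MuvB complexes, and with CCAAT boxes, bound by NF-Y.

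Promoters are shown for the 6 genes with the highest total counts among the 17 with both motifs. Whether the motifs have a part in the ratios below was not tested. By level per kb of exon the choice would differ: Ccnb2, Cdc20 and Ckap2l, which also hold both motifs, lie above Smc2 and Kif11 on that scale. RefSeq promoters (GRCm38.p6) were found for 45 of the 52 genes, 47 windows in all, and the 250 bases before each start were searched on both strands. A CHR was searched as TTTGAA, its reverse complement TTCAAA, or the palindrome TTCGAA, and a CCAAT box as CCAAT or ATTGG. The motifs can overlap, as in CCAATTGG of the Ube2c promoter, which holds the box on both strands. Capitals mark the matches, each line runs 5′ to 3′ on the strand of the gene, and each starts 10 bases before its leading match and ends at the base before the RefSeq start. The regions are chr7:135716380-135716577 (minus strand), chr11:99024190-99024426 (minus), chr6:125191587-125191773 (minus), chr19:37376327-37376381 (plus), chr2:164769691-164769928 (plus) and chr4:52439066-52439220 (plus).
Mki67: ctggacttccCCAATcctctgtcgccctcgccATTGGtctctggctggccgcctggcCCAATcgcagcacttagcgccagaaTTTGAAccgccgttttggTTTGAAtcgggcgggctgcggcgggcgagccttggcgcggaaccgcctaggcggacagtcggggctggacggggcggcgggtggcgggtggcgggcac
Top2a: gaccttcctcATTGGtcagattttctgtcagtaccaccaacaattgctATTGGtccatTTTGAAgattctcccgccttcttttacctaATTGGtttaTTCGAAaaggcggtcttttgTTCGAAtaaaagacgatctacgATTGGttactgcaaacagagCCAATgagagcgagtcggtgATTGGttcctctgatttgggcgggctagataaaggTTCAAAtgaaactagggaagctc
Ncapd2: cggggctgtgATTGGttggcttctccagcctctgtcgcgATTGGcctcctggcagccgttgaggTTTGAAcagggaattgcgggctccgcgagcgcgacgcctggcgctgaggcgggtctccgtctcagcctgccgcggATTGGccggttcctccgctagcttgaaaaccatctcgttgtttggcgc
Kif11: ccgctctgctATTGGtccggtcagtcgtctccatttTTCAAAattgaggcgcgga
Ube2c: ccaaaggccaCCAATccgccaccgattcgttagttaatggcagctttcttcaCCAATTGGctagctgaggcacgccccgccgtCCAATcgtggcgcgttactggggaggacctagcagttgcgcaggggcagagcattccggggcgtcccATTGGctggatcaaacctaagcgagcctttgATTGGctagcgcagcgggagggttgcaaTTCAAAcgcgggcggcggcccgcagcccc
Smc2: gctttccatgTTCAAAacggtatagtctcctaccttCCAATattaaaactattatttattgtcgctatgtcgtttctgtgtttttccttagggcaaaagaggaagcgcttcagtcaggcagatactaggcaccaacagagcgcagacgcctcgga

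Mki67 held 2 CHR matches, the leading base of the nearer one 98 bases before the start, and Top2a held 4, the nearest at 23. Ube2c and Kif11 each had 1 CHR, at 29 and 19 bases before the start, with CCAAT boxes farther upstream. A CHR was found in 20 of the 47 member promoters (42.6%), a CCAAT box in 35 (74.5%) and both in 18 (38.3%). Over the 10796 promoters of all tested genes the shares were 12.3%, 35.6% and 4.83%, and over all 32851 promoters they were 17.1%, 33.8% and 6.02%. Among the promoters of members higher in GFP-high cells (below), 50% of 34 held a CHR and 44.1% held both motifs, and among those of members not called the share was 23.1% of 13 for each. A CCAAT box was in 76.5% of the former and 69.2% of the latter, and no difference between these groups was tested. The genes with both motifs and no call were Ccnb2, Cdc20 and Kif22. These matches describe letters in the window and were not tested as sites.

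The libraries held between 4677389 and 6207080 counts, and 18918 genes had a count in at least 1 of them. All 10 stem cell markers were higher in GFP-high cells (edgeR adjusted p under 0.05), with a summed level of 9537 to 10614 CPM (counts per 1000000, scaled by the TMM method) against 1559 to 2116 in GFP-low. All 8 goblet markers were lower in GFP-high (3184 to 3589 against 17846 to 40660 CPM), as were 9 of 10 enterocyte markers (511 to 746 against 2581 to 6004), 6 of 7 Paneth markers (451 to 785 against 1110 to 2302) and 5 of 8 enteroendocrine markers (62.4 to 81.6 against 502 to 1184). Tuft markers summed to 14.1 to 16.3 CPM in GFP-high and 24.7 to 31.9 in GFP-low, and 2 of the 3 that could be tested were called lower (6 listed). Leukocyte markers summed to 21.3 to 48.9 and 29.5 to 48.9 CPM. Only 2 of the 12 listed had counts enough to be tested, of which Cd14 was called higher and Itgam lower, and Ptprc and Csf1r were at 0 throughout. Col1a1, Col1a2, Col3a1, Dcn and Lum of fibroblasts and Cdh5 of endothelium were at 0 in every library. Mitochondrial ribosomal RNA made up 1.18% of the HFD GFP-high library and 2.54% to 2.82% of the others.

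The 52 genes were transcribed in both fractions. Together they took 0.643% of the counts of the HFD GFP-high library (95% Wilson interval 0.6372% to 0.6497%) and 0.649% (0.6425% to 0.6563%) of the control GFP-high library. They took 0.385% (0.3801% to 0.3906%) and 0.413% (0.4068% to 0.4184%) of the HFD and control GFP-low libraries. These shares are of library totals without TMM scaling. In TMM-scaled CPM the 52 genes summed to 5983 (HFD) and 6114 (control) in GFP-high, against 4154 and 4372 in GFP-low, a smaller gap. Without molecular identifiers on the reads, intervals here and below cover counting error only. Mki67, which coats the surface of mitotic chromosomes and marks cycling cells, alone gave 18.1% to 19.7% of the members' counts in each library. Without Mki67 and Top2a the shares were 0.458% and 0.459% in GFP-high and 0.285% and 0.293% in GFP-low.

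Levels per kilobase of exon, with all annotated exons of a gene merged, spanned a wide range. The mean over the 4 libraries ran from 3.01 CPM per kb for Ndc80 to 97.6 for Mki67, with a median of 13 against 7.65 over all tested genes, and 40 of the 52 lay above that median. After Mki67 came Top2a, the topoisomerase that untangles sister chromosomes, at 53.3 CPM per kb, then Ube2c at 50.3, Ccnb2 at 50, Cdca3 at 48.8, Ccna2 at 46.7 and Plk1 at 35.8. The lowest after Ndc80 were Nuf2 at 4.93, Ccnb1 and Dlgap5 at 5.21 and Ttk at 5.24. The B-type cyclins stood far apart on this scale, Ccnb2 near the top and Ccnb1 near the bottom. Part of that gap comes from their merged exon lengths, 1531 bp for Ccnb2 and 4217 bp for Ccnb1, which can exceed the main transcript. In the HFD GFP-high library they were at 75.8 and 23.8 CPM. Ube2c, Ccnb2, Cdca3 and Ccna2 lay within 4 CPM per kb of each other, and the GFP-low and GFP-high values of each of them but Ccnb2 and Cdca3 lay farther apart than that.

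**Figure D1:**
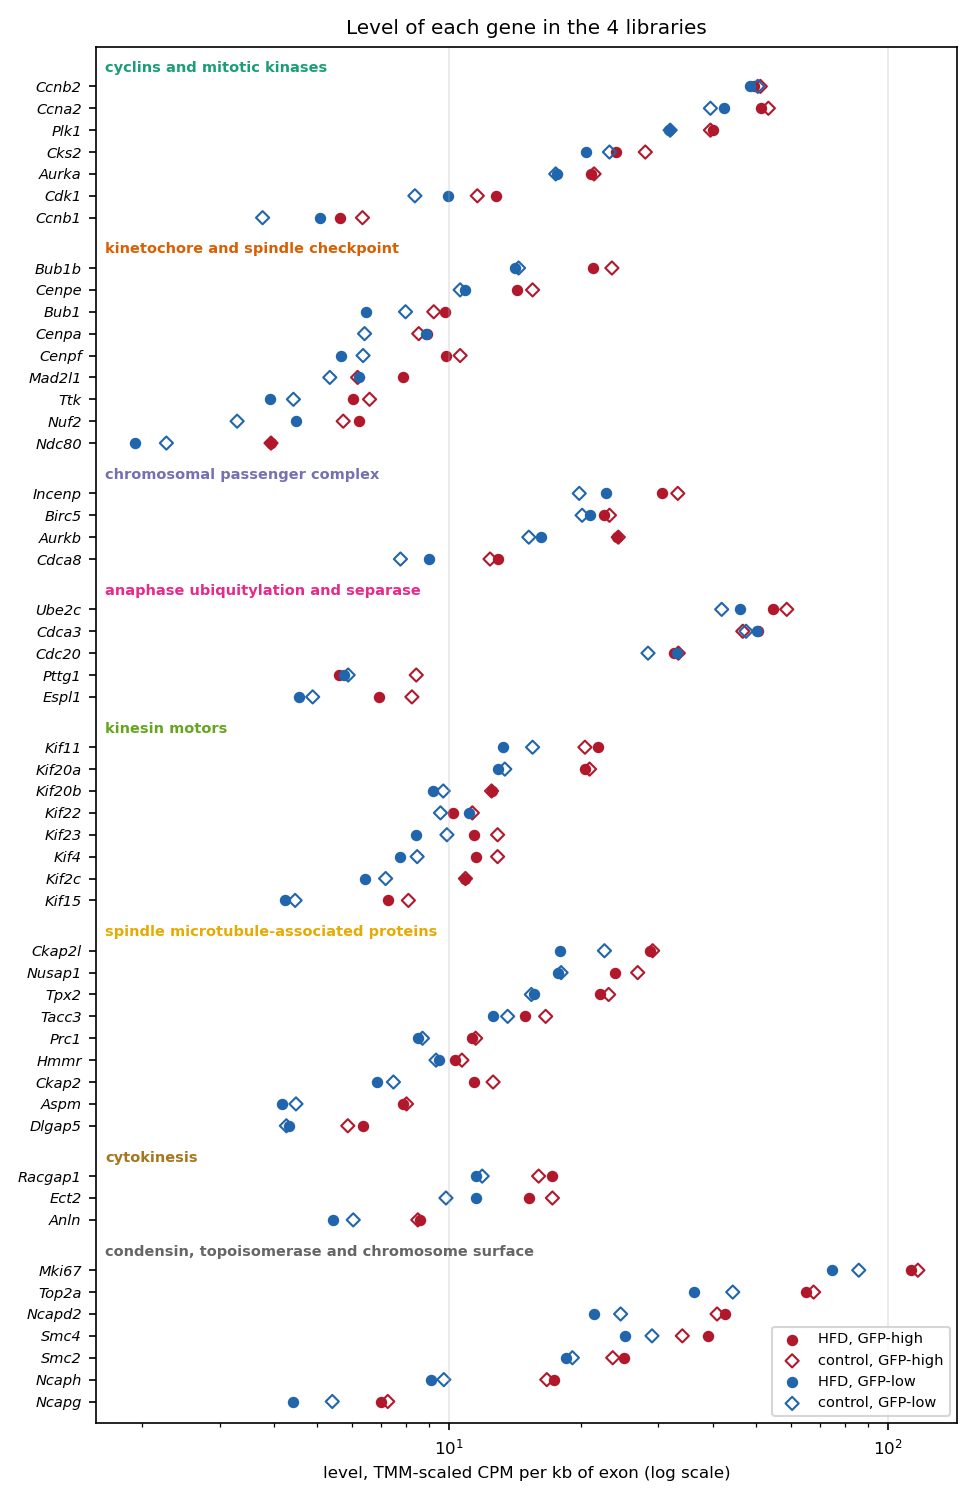
Level of each of the 52 genes in each library, in TMM-scaled CPM per kb of exon on a log axis, grouped by role and ordered by mean level. Red marks GFP-high and blue GFP-low, filled circles HFD and open diamonds control. In 45 of the 52 genes both red marks lie to the right of both blue marks.

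The fractions were compared to ask how the mitosis genes differ between cells labelled stem cells and progenitors. Of the 52 genes, 39 were higher in GFP-high cells, none was lower and 13 were not called (edgeR's quasi-likelihood test with diet as a term, Benjamini-Hochberg adjusted p under 0.05 over all tested genes). Over all tested genes 22% were called higher and 25.6% lower. The differences were small in size: the median log2 ratio was 0.51, or 1.43-fold, against -0.00 over all tested genes. The middle of the list ran from 0.35 to 0.62 (quartiles), against -0.39 to 0.36 over all tested genes. In this fit 18 members reached 1.5-fold, and the like count over all tested genes was not taken. In 45 members both GFP-high libraries lay above both GFP-low libraries, as in 33.7% of all tested genes. The 7 whose fractions overlapped were Ccnb2, Cenpa, Kif22, Cdc20, Cdca3, Mad2l1 and Pttg1. In bulk samples like these, fewer dividing cells and less of the RNA per cell cannot be told apart, and the part that goblet, enterocyte and Paneth RNA in GFP-low has in these ratios was not tested.

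Among the cyclins and mitotic kinases, 3 of 7 were higher in GFP-high cells, with a median log2 ratio of 0.32. Cdk1, the kinase that drives mitotic entry, measured 63.4 and 57.4 CPM in GFP-high (HFD, then control, here and below) against 49.2 and 41.2 in GFP-low (log2 0.42 ± 0.12 SE, adjusted p = 0.0106). Its partner Ccna2 (cyclin A2, log2 0.36) and the Polo kinase Plk1 (0.32) were also higher. Ccnb1, the main mitotic cyclin, was at 23.8 and 26.8 CPM in GFP-high against 21.4 and 15.9 in GFP-low, a log2 ratio of 0.43 ± 0.18 that was not called (adjusted p = 0.063). Its fractions did not overlap, but it rests on 483 counts in all. Ccnb2, the other B-type cyclin, was level across the libraries, at 75.8 and 78.4 CPM in GFP-high against 74.5 and 77.3 in GFP-low (log2 0.02 ± 0.11, adjusted p = 0.884). Aurka, the Aurora kinase of the centrosome and spindle poles, had 0.27 and Cks2, a small Cdk-binding protein, 0.25, and neither was called.

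At the kinetochore and in the spindle checkpoint, 7 of 9 genes were higher in GFP-high cells, with a median of 0.60. Ndc80, which binds microtubule ends in the outer kinetochore, had the highest ratio of all 52 genes. It stood at 25.5 CPM in each GFP-high library against 12.5 and 14.7 in GFP-low (1.88-fold, log2 0.91 ± 0.18, adjusted p = 0.000628). Cenpf, a large protein of the outer kinetochore, was at 152 and 163 CPM in GFP-high against 87.6 and 98.3 in GFP-low (log2 0.76). The checkpoint kinases and their partners followed, with Bub1b at 0.65, Ttk at 0.60 and Bub1 at 0.41, as did Nuf2, the partner of Ndc80, at 0.63 and the kinetochore motor Cenpe at 0.47. Mad2l1, the checkpoint protein that holds Cdc20, had 0.28 and was not called (adjusted p = 0.0714). Cenpa, the histone variant that marks the centromere, was at 52.3 and 50 CPM in GFP-high against 52 and 37.6 in GFP-low, the lowest ratio of the group (0.19 ± 0.13, adjusted p = 0.252). Only its control GFP-low library lay below the other 3.

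In the chromosomal passenger complex, which corrects attachments and then directs cytokinesis, 3 of 4 genes were higher. Its kinase Aurkb was at 70.9 and 71.5 CPM in GFP-high against 47.8 and 44.9 in GFP-low (1.54-fold, log2 0.62 ± 0.12, adjusted p = 0.000499). The borealin gene Cdca8 had a log2 ratio of 0.60 and the scaffold Incenp 0.58. Birc5 (survivin), their partner in the same complex, was at 76.4 and 78.9 CPM in GFP-high against 71.2 and 68.4 in GFP-low, with 0.15 ± 0.11 and no call (adjusted p = 0.28).

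The genes of anaphase ubiquitylation and sister separation had the lowest median, 0.24, with 2 of 5 higher in GFP-high cells. Espl1 (separase), the protease that cuts cohesin, was at 60.5 and 72 CPM in GFP-high against 39.9 and 42.8 in GFP-low (1.6-fold, log2 0.68). Ube2c, the ubiquitin-conjugating enzyme of the anaphase-promoting complex, had 0.37 and was called. Cdc20, which activates that complex, was at 61 and 62.3 CPM in GFP-high against 61.9 and 53 in GFP-low (0.10 ± 0.12, adjusted p = 0.528). Cdca3, a ubiquitin ligase adaptor that acts at mitotic entry, was at 145 and 134 CPM in GFP-high against 144 and 136 in GFP-low, the lowest ratio of the 52 genes (-0.01 ± 0.10, adjusted p = 0.969). Its sign turned to 0.19 (adjusted p = 0.133) when libraries were scaled by their totals. Pttg1 (securin), the inhibitor of separase, had 0.24 ± 0.24 at 11.2 to 16.8 CPM and was not called (adjusted p = 0.426), so separase and its inhibitor differed in their calls at very unequal depth, and the difference between them was not tested.

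Of the 8 kinesin motors, 7 were higher in GFP-high cells, with a median of 0.57. Kif15, which supports the bipolar spindle, was at 79.8 and 89.1 CPM in GFP-high against 46.7 and 49.2 in GFP-low (1.76-fold, log2 0.81 ± 0.12, adjusted p = 3.01e-05). The microtubule depolymerase Kif2c had 0.68, the midzone motor Kif20a 0.65, the chromosome-bound Kif4 0.59 and Kif11, the motor that pushes spindle poles apart, 0.55. Kif23 of the centralspindlin complex had 0.41 and Kif20b, which acts in cytokinesis, 0.40. Kif22, which pushes chromosome arms toward the equator, was at 50 and 55.6 CPM in GFP-high against 54.6 and 46.9 in GFP-low (0.05 ± 0.13, adjusted p = 0.77), and its fractions overlapped.

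Spindle microtubule-associated proteins gave 7 of 9 higher genes and a median of 0.52. Aspm, which focuses spindle poles, was at 91.2 and 92.7 CPM in GFP-high against 48.2 and 51.9 in GFP-low (1.84-fold, log2 0.88 ± 0.11, adjusted p = 1.2e-05), the highest after Ndc80. Ckap2 followed at 0.74, then Tpx2, the activator of Aurora A, at 0.55, Ckap2l and the kinetochore-fibre protein Dlgap5 at 0.52, Nusap1 at 0.50 and the midzone bundler Prc1 at 0.41. Tacc3, a microtubule cross-linker, had 0.26 (adjusted p = 0.0907) and Hmmr, a spindle pole protein, had 0.15 (adjusted p = 0.322). Hmmr was at 55.7 and 58.1 CPM in GFP-high against 51.6 and 50.7 in GFP-low, a narrow gap with no overlap. All 3 cytokinesis genes were higher: Ect2, the exchange factor that activates RhoA, at 81.8 and 92.5 CPM in GFP-high against 62.1 and 53 in GFP-low (0.59), the contractile ring scaffold Anln (0.58), and Racgap1 of centralspindlin at 122 and 113 against 81.5 and 84.3 CPM (0.51).

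Every one of the 7 condensin, topoisomerase and chromosome surface genes was higher in GFP-high cells, with a median of 0.54. Ncapd2, a HEAT-repeat subunit of condensin I, was at 267 and 256 CPM in GFP-high against 134 and 154 in GFP-low (1.82-fold, log2 0.86 ± 0.10, adjusted p = 4.06e-06), the smallest p of the list. Its partners Ncaph, the kleisin, and Ncapg had 0.85 and 0.54. Top2a was at 585 and 610 CPM in GFP-high against 326 and 399 in GFP-low (log2 0.73 ± 0.10, adjusted p = 2.19e-05). Mki67 was at 1134 and 1178 CPM in GFP-high against 752 and 863 in GFP-low (0.52 ± 0.10, adjusted p = 0.0005). The ATPase core shared by both condensin complexes had the lowest ratios of the group, Smc4 at 0.43 and Smc2 at 0.38. Smc2 was at 138 and 129 CPM in GFP-high against 101 and 104 in GFP-low (adjusted p = 0.00633). In all 7 genes both GFP-high libraries lay above both GFP-low libraries.

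**Figure D2:**
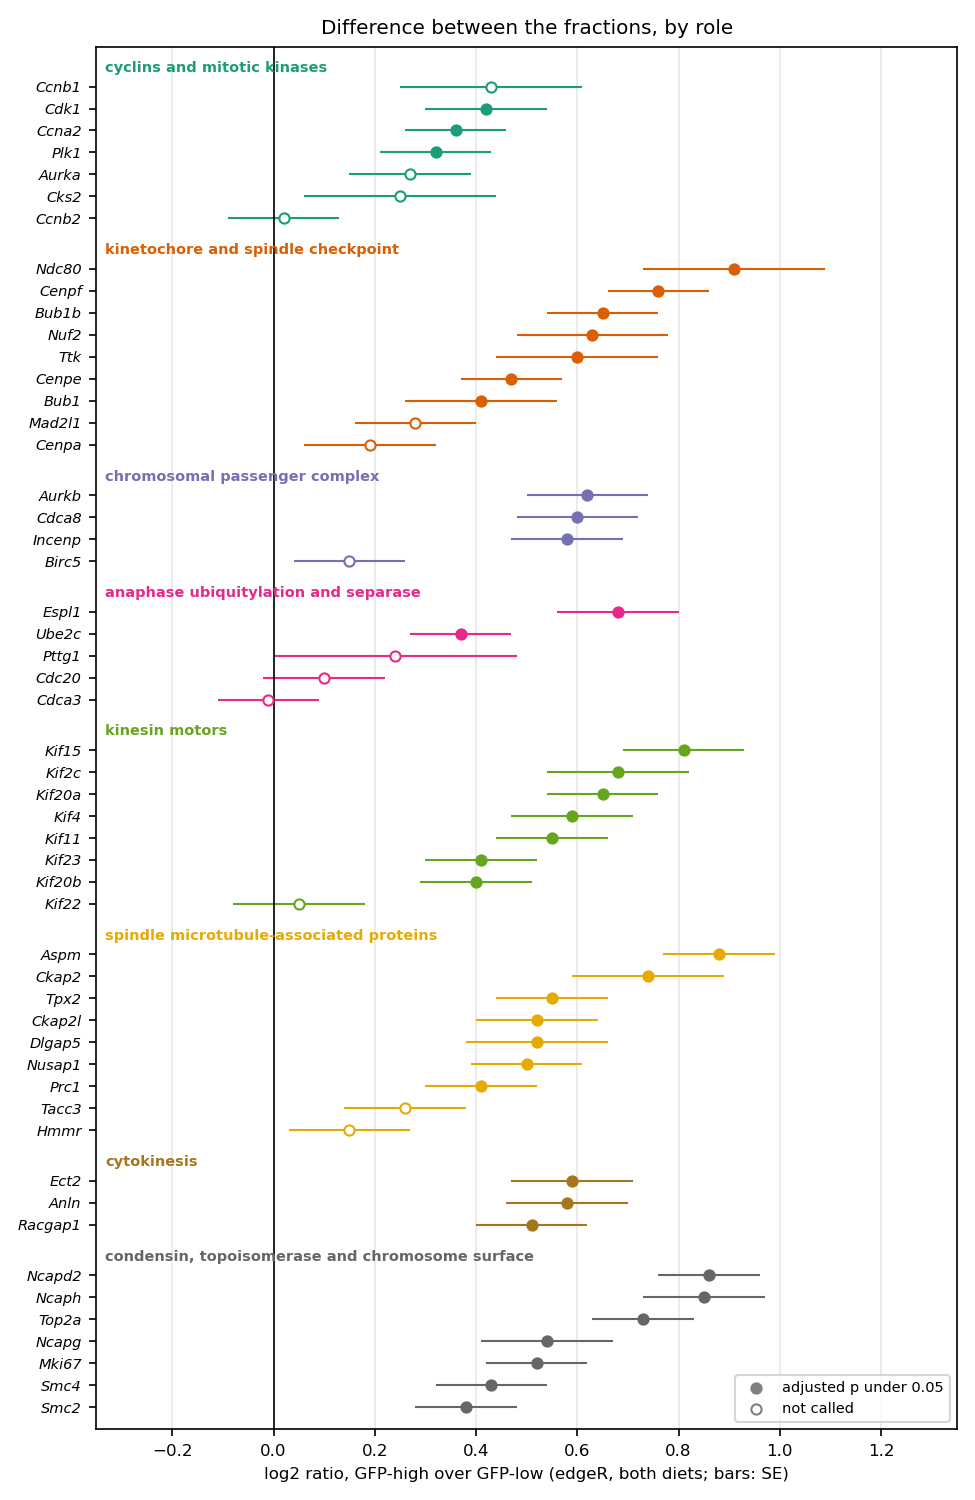
Log2 of GFP-high over GFP-low for each of the 52 genes over both diets, with the standard error from the F statistic of edgeR as bars, grouped by role. Filled points passed an adjusted p of 0.05 and open points did not. Ratios run from -0.01 for Cdca3 to 0.91 for Ndc80, and 7 of the 13 open points belong to the cyclins and kinases or the anaphase genes.

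The number of calls depended on the fit and on single libraries, while 0 members were called lower in each fit tried. DESeq2 called 17 members higher (8.41% of all tested genes), edgeR without the diet term 28 (12%) and edgeR with library totals 46 (34%), and library totals moved the median of all tested genes from -0.00 to 0.19 and that of the members from 0.51 to 0.70. With 1 library left out and no diet term, the calls were 4 without HFD GFP-high (3.48% of all tested genes), 13 without HFD GFP-low (6.26%), 3 without control GFP-high (4.1%) and 16 without control GFP-low (7.43%). Aspm and Ncapd2 were called in each of these 7 fits. The annotation places Ccna2, Kif20a, Kif4, Ube2c, Cdc20, Cdca8, Nusap1, Prc1, Tacc3, Ckap2l, Ncapg, Smc2, Ect2 and Top2a over a gene on the opposite strand, and since the strand setting of the counting is not known, reads of the partners may be among theirs.

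The difference between the fractions had a similar median under both diets, and whether it differed between them was not tested. With 1 library against 1, the median log2 ratio was 0.49 under HFD and 0.48 under control, and 48 of the 52 genes were above 0 under both, as were 40.9% of all tested genes. At least 1.5-fold higher in GFP-high were 20 members under HFD (16% of all tested genes) and 19 under control (15.1%), and none was 1.5-fold lower under either (17.6% of all tested genes in each). The counting interval lay above 0 for 41 members under HFD (28.3% of all tested genes), 43 under control (26.2%) and 39 under both (20.2%). It lay below 0 for no member under either diet (31.7% and 29.6% of all tested genes). Ncapd2 had log2 ratios of 0.99 (95% interval 0.86 to 1.12) under HFD and 0.73 (0.60 to 0.86) under control. Cdc20, Pttg1 and Kif22 were at or below 0 under HFD (-0.02, -0.04 and -0.13) but not under control (0.23, 0.50 and 0.24), and Cdca3 was below 0 only under control (-0.02).

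The members' ratios were larger in longer genes and had little relation to CPM. Across the 52 genes, the log2 ratio of the fractions had a rank correlation of 0.02 with CPM and of -0.31 with CPM per kb, and of 0.45 with exonic length (Pearson 0.52 on log2 length). Over the 10615 tested genes with a length the rank correlation with length was 0.16. Genes are not independent replicates, and these values describe 4 shared libraries. Of the 9 members with up to 3000 bp of exon, 3 were higher in GFP-high (Aurkb, Plk1 and Ube2c), with a median of 0.25 against -0.14 over all tested genes of that length. Between 3000 and 5000 bp 13 of 17 were higher (median 0.52 against -0.02), between 5000 and 8000 bp 14 of 16 (0.53 against 0.05), and above 8000 bp 9 of 10 (0.63 against 0.10). In the class up to 3000 bp, the genes without a call were Ccnb2, Aurka, Cdc20, Cdca3, Cks2 and Pttg1. In the class above 8000 bp it was Mad2l1. Length here merges all annotated exons of a gene, so it can exceed that of its main transcript.

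**Figure D3:**
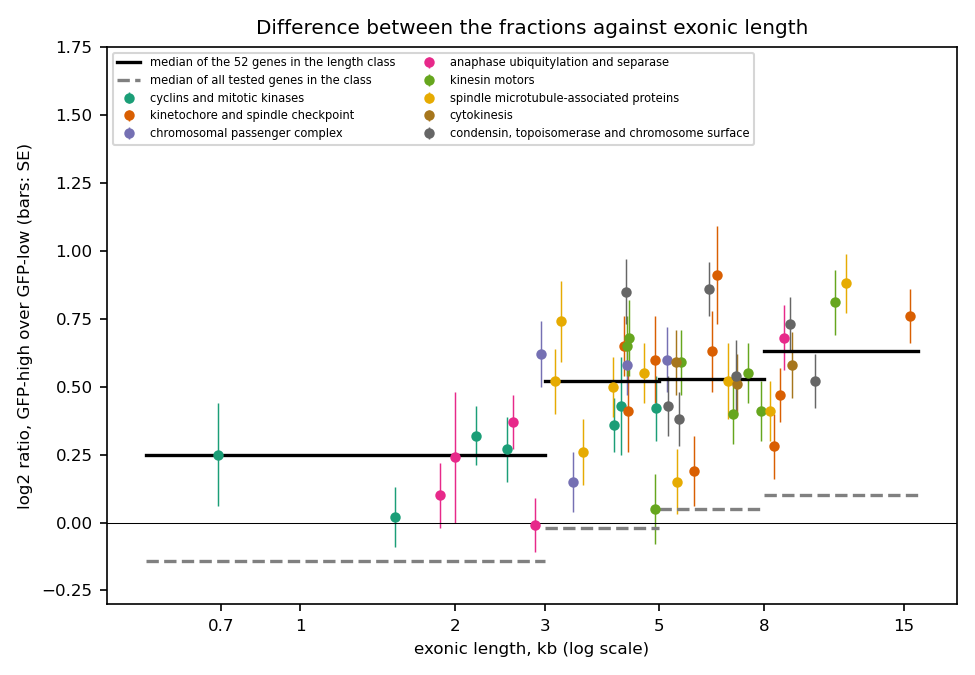
Log2 of GFP-high over GFP-low (bars, standard error) against exonic length in kb on a log axis, 1 point per gene, coloured by role. Black lines give the members' median in each length class (0.25, 0.52, 0.53 and 0.63) and dashed grey lines that of all tested genes (-0.14, -0.02, 0.05 and 0.10).

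HFD was next compared with control over both fractions, the question of the series. None of the 52 genes was called higher or lower under HFD, by edgeR or by DESeq2, where edgeR called 2.96% of all tested genes higher and 3.5% lower. Only Mad2l1 had an unadjusted p under 0.05 in edgeR, and no member had one in DESeq2. Of the 10694 tested genes, 2174 had one in edgeR and 626 in DESeq2. The median log2 ratio of HFD over control was -0.04, or 1.03-fold lower under HFD, against 0.01 over all tested genes. The ratios ran from -0.34 to 0.29 with standard errors of 0.10 to 0.24, 20 above 0 and 32 below, and 46 of the 52 lay within 0.2 of 0. Their quartiles were -0.12 and 0.02, against -0.16 and 0.18 over all tested genes. A ratio that misses the threshold does not show that the diets are alike, and if the same mice supplied both fractions, the p-values for diet are smaller than they should be.

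The 3 highest ratios belonged to kinetochore and checkpoint genes, but that group of 9 had a median of -0.08 and ratios down to -0.15. Mad2l1 was at 66.1 and 51.9 CPM in GFP-high under HFD and control against 52.2 and 44.9 in GFP-low, a log2 ratio of 0.29 ± 0.12 (unadjusted p = 0.0317, adjusted p = 0.193). Nuf2 was at 39.5 and 36.4 CPM in GFP-high against 28.3 and 20.8 in GFP-low (0.25 ± 0.15, adjusted p = 0.372), and Cenpa also had 0.25 ± 0.13 (adjusted p = 0.319). In these 3 genes the HFD library was the higher in both fractions. The lowest were Pttg1, at 11.2 and 16.8 CPM in GFP-high against 11.5 and 11.8 in GFP-low (-0.34 ± 0.24, adjusted p = 0.46), Cks2, at 16.6 and 19.4 against 14.2 and 16.1 CPM (-0.20 ± 0.19, adjusted p = 0.605) and Kif23 (-0.20 ± 0.11, adjusted p = 0.32). Kif23 was at 90.2 and 102 CPM in GFP-high against 66.4 and 78.2 in GFP-low, lower under HFD in both. Of the best known proliferation genes, Cdk1 had 0.19 ± 0.12 (adjusted p = 0.41), Ccnb1 0.08 ± 0.18 (0.847), Mki67 -0.13 ± 0.10 (0.526) and Top2a -0.17 ± 0.10 (0.355).

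The diets were also set side by side inside each fraction, 1 library against 1, with no test. Over the 52 genes the log2 ratio had a median of -0.04 in GFP-high cells and of -0.05 in GFP-low cells. No member reached 1.5-fold in either direction in either fraction, where 3.96% of all tested genes were at least 1.5-fold higher and 4.26% lower in GFP-high, and 6.08% and 7.22% in GFP-low. For 50 members in GFP-high and 43 in GFP-low the whole counting interval lay within 1.5-fold, as it did for 61.2% and 50.8% of all tested genes. The sign was the same in both fractions in 29 genes and opposite in 23, and the like count over all tested genes was not taken. Beyond counting error, Mad2l1 and Smc4 were higher under HFD in GFP-high and 6 genes were lower (Mki67, Kif23, Nusap1, Ect2, Espl1 and Pttg1), where 15% of all tested genes were higher and 14.5% lower. In GFP-low Cenpa, Nuf2 and Incenp were higher and 7 lower (Mki67, Top2a, Kif11, Kif23, Ckap2l, Ncapd2 and Smc4), against 15.9% and 16.8% of all tested genes. Mki67 and Kif23 were lower in both, Mki67 with -0.05 (-0.10 to -0.01) in GFP-high and -0.20 (-0.27 to -0.13) in GFP-low.

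**Figure D4:**
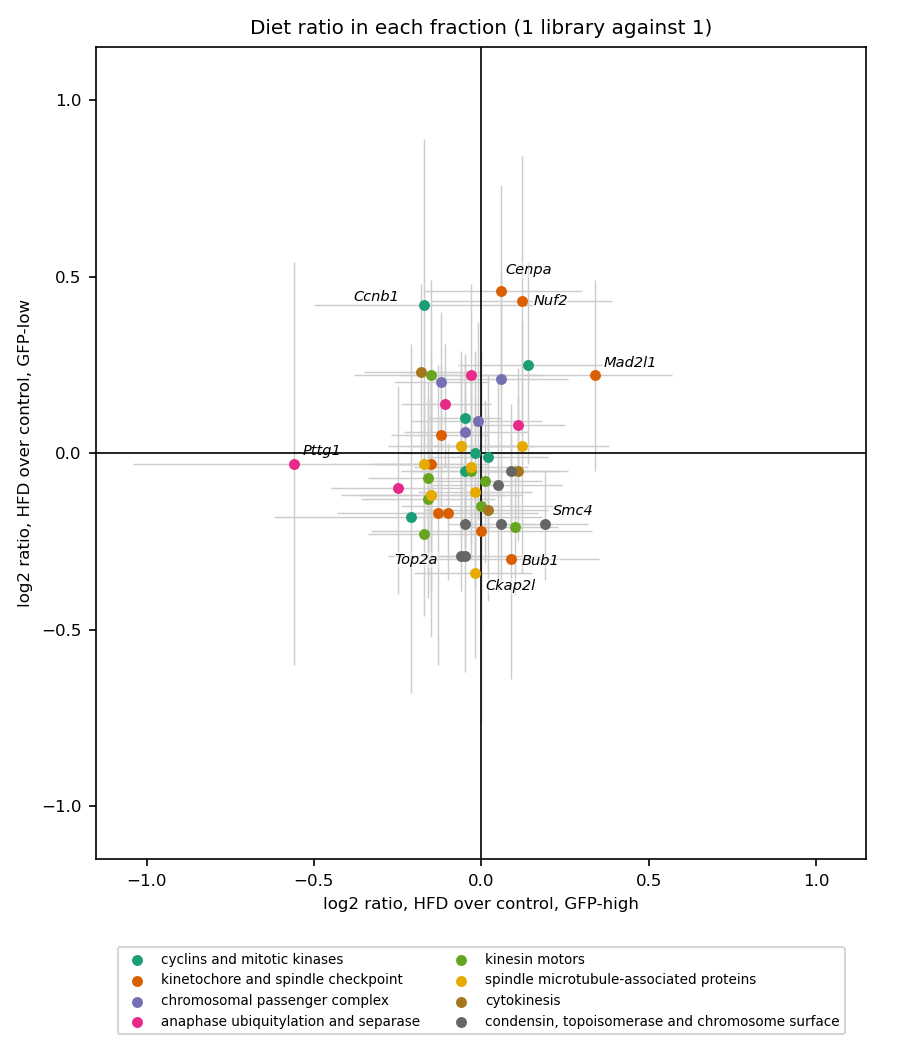
Log2 ratio of HFD over control in GFP-high (horizontal axis) and in GFP-low (vertical axis), 1 point per gene, with 95% counting intervals as grey bars, coloured by role. Every point lies within 0.56 of 0 on both axes, with points on either side of 0 on each.

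How far the diet ratio differed between the fractions was taken as a value with no test, since 1 library per group leaves none. The difference, GFP-high minus GFP-low, had a median of -0.01 over the 52 genes, with 26 above 0. The most negative were Ccnb1 (-0.59), Pttg1 (-0.53) and Ect2 (-0.40). Ccnb1 had a diet ratio of -0.17 in GFP-high and 0.42 in GFP-low, and the interval of each held 0. Ect2 had -0.18 and 0.23. The most positive were Smc4 (0.40), the mitotic kinase gene Bub1 (0.38) and Ckap2l (0.31). Smc4 was at 203 and 177 CPM in GFP-high under HFD and control against 131 and 151 in GFP-low, so that the HFD library was the higher in GFP-high and the lower in GFP-low. All 7 condensin, topoisomerase and chromosome surface genes had a difference above 0, with a median of 0.23, and all 7 had a diet ratio below 0 in GFP-low (median -0.20). Over all tested genes 51% had a difference above 0 and 49.6% a ratio below 0 in GFP-low. Of 14 condensin and cohesin genes outside the 52, 7 had a difference above 0 (median 0.01) and 5 a ratio above 0 in GFP-low. The difference was above 0 in 5 of 8 kinesins (median 0.04) and 2 of 3 cytokinesis genes (median 0.15). In each of these 2 groups 1 gene had a ratio above 0 in GFP-low. The passenger and anaphase genes went the other way. A difference above 0 was found in 0 of the 4 chromosomal passenger genes (median -0.13) and 1 of the 5 anaphase genes (median -0.24). All 4 passenger genes and 3 of the 5 anaphase genes had a ratio above 0 in GFP-low. In GFP-low, goblet markers summed to 17846 CPM under HFD and 40660 under control and enterocyte markers to 6004 and 2581, and their part in these values was not tested.

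Other mitosis genes outside the 52 were set beside them. Of 111 further genes of the kinetochore, condensin and cohesin, the anaphase-promoting complex, the spindle, centrosome and cytokinesis, and G2/M control, 61 were higher in GFP-high cells and none lower, with a median log2 ratio of 0.45. Among 34 other kinetochore genes 19 were higher (median 0.52), from Zwilch (1.02) and Kntc1 (1.01), partners in the complex that brings dynein to kinetochores, down to Cenpq (0.17) and Zwint (0.07). Among 14 other condensin and cohesin genes 8 were higher (median 0.30), led by the cohesin regulator Pds5b (1.09) and the condensin II subunit Ncapg2 (0.97), with the cohesin subunit Rad21 at 0.13 and the cohesin release factor Wapl at -0.15. The anaphase-promoting complex had the lowest median, 0.11, with 5 of 14 higher: Cdc23 (0.66, which overlaps Kif20a on the opposite strand) and the inhibitor Fbxo5 (0.60) stood highest, and Anapc2 (-0.17) and Anapc10 (-0.47) lowest. Among 27 other spindle, centrosome and cytokinesis genes 19 were higher (median 0.62), with Psrc1 at 1.65 and the citron kinase gene Cit at 1.16, and Nek2 at 0.11 and Kif2a at -0.05. Of 22 genes listed as G2/M regulators 10 were higher (median 0.37), led by Wee1, the kinase that restrains Cdk1, at 1.65. E2f1, a factor of entry into S phase that the list also holds, followed at 1.36. The lowest were Ensa at 0.04 and Cdc25a at -0.17. Wee1 was at 58.9 and 54.3 CPM in GFP-high against 20.6 and 15.4 in GFP-low, a larger ratio than that of any of the 52.

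DNA replication genes, which act in the earlier S phase, had a higher median than the 52 genes: 29 of 34 were higher in GFP-high cells and none lower, with a median of 0.89. Pole, the leading-strand polymerase, had 1.19 and the licensing factor Cdt1 1.16, and Rrm2, a subunit of ribonucleotide reductase, had the lowest ratio, 0.21, followed by Gins4 at 0.26. For diet, none of the 34 replication genes was called, with a median of 0.21 against 0.01 over all tested genes. Their quartiles were 0.11 and 0.28, against -0.16 and 0.18 over all tested genes. An unadjusted p under 0.05 in edgeR was found for 9 of the 34, and for 2174 of the 10694 tested genes. Of the 111 other mitosis genes, edgeR called 1 higher under HFD and 1 lower, where it called 2.96% and 3.5% of all tested genes. Hjurp, the chaperone that deposits Cenpa, was higher (0.39 ± 0.10, adjusted p = 0.0286) and Cit lower (-0.38 ± 0.10, adjusted p = 0.0359). Neither was called by DESeq2 (adjusted p = 0.588 and 0.894) or with DESeq2 size factors in edgeR (0.0683 and 0.0647). The fit without the fraction term called no gene at all for diet, so it could not single them out. With a library left out, the ratio ran from 0.18 to 0.64 for Hjurp and from -1.07 to 0.34 for Cit, and the libraries left are unequal in fraction. Hjurp was at 490 and 411 CPM in GFP-high under HFD and control against 442 and 304 in GFP-low.

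**Figure D5:**
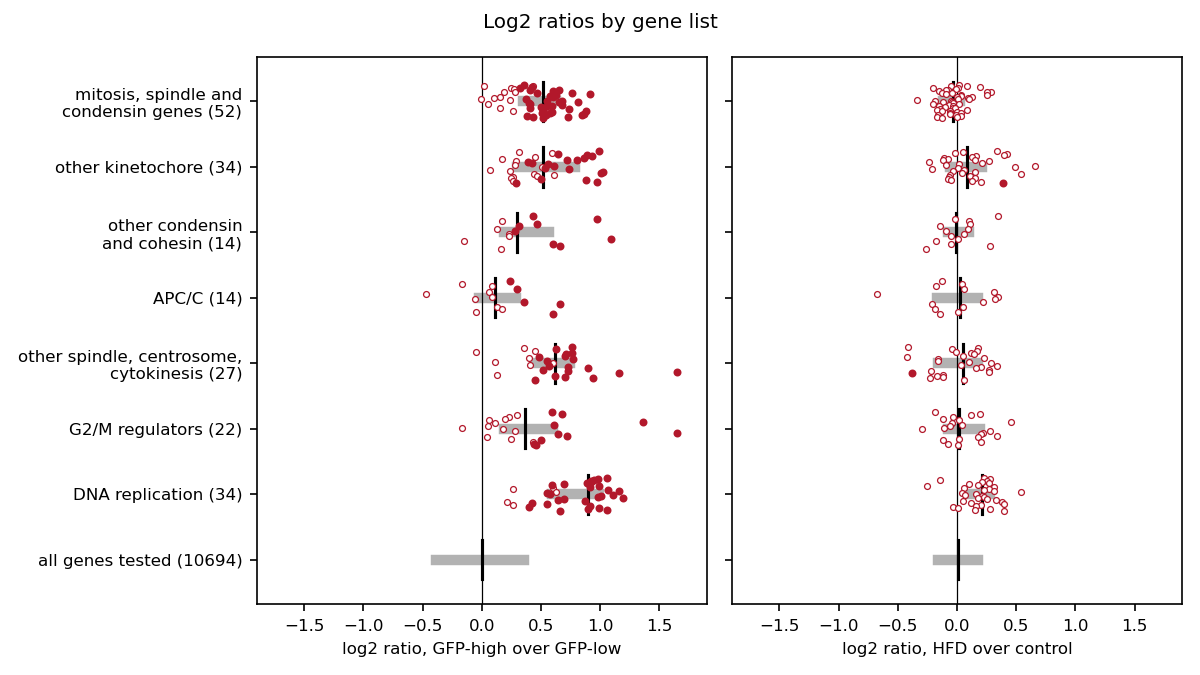
Log2 of GFP-high over GFP-low (left) and of HFD over control (right) for the 52 genes, the other mitosis lists, DNA replication genes and all tested genes, with the number of genes in brackets. Points are genes, filled where called at an adjusted p of 0.05, black ticks are medians and grey bars quartiles. The fraction medians run from 0.11 for the anaphase-promoting complex (APC/C) to 0.89 for DNA replication. For diet 2 genes outside the 52 are filled, where 2.96% of all tested genes were called higher and 3.5% lower.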

How the data were processed

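The deposited values were whole-number counts of reads per gene, made by the authors and not normalized. Per the labels' protocols, poly(A) RNA was selected and made into strand-specific libraries with a dUTP kit, and the submitters' processing notes name cutadapt, TopHat 1.4.1, HTSeq and the builds GRCm38 and mm10. Neither the annotation release nor the strand setting is given in the sources used here. Of the 38124 gene IDs, 36345 matched a symbol. Gene positions and exonic lengths came from GENCODE M21 on GRCm38. The exonic length of a gene is that of all its annotated exons merged, over all transcripts, and can exceed that of its main transcript.

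Samples were grouped by their labelled diet and GFP fraction. Library totals were scaled by TMM and 10694 genes, those with 20 or more counts in 2 or more libraries, entered the quasi-likelihood F-test of edgeR 4.0.16 (R 4.3.3), two-sided, in 1 additive model of fraction and diet, with Benjamini-Hochberg adjustment over all tested genes and a threshold of 0.05. Its 1 residual degree of freedom is the diet-by-fraction term, so a difference in diet ratio between the fractions counts as spread. The common dispersion was 0.00695. The spread of each gene was moderated toward that of the other genes with the robust option of edgeR. Each standard error (SE) is the absolute log2 ratio divided by the square root of its F statistic. Pairs of libraries were compared by the log2 ratio of TMM-scaled CPM with 0.5 CPM added, which understates low genes, with exact 95% intervals of the ratio of Poisson counts. A gene with 0 counts can be as high as 0.483 to 0.641 CPM, from 3 counts of the library total.

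Alternatives were library totals, DESeq2 size factors, no filter or a filter of 100 counts, DESeq2 1.42.0, no term for the other factor, 0 or 2 CPM added and, chosen after seeing the data, each library left out in turn without the other term. The named genes were every member by its fraction ratio, with library values for the highest and lowest members overall and of each role group and for fixed genes (Mki67, Top2a, Cdk1, Ccnb1, Aurkb, Birc5, Cdc20, Smc2), the 3 highest and lowest members for diet and for its difference between fractions, and the 2 highest and lowest of other lists. Members, lists and rules were chosen with earlier results of these data known.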

Additional observations from a re-analysis of the deposited data

Results flagged for a closer look

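Smc4, the condensin ATPase gene, was the 1 member whose diet ratio lay beyond counting error in opposite directions in the fractions. Its log2 ratio of HFD over control was 0.19 (95% counting interval 0.08 to 0.32) in GFP-high and -0.20 (-0.36 to -0.05) in GFP-low, a difference of 0.40. The difference was not tested, since each value rests on 1 library against 1. Beyond counting error, 15% of all tested genes were higher under HFD and 14.5% lower in GFP-high. In GFP-low the shares were 15.9% and 16.8%. How many of all tested genes went in opposite directions in the fractions was not counted.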

How the results depend on the processing

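With 1 library per group, depth limited the low genes: Pttg1 and Ccnb1 had standard errors of 0.24 and 0.18 against 0.10 for Mki67, and the 1 residual degree of freedom limits every call. For fraction, 39 members were called higher by edgeR in the model of both terms, 39 with DESeq2 size factors, no filter or a filter of 100 counts, 46 with library totals, 28 without the diet term, 17 by DESeq2, and 3 to 16 with each library left out in turn. All the calls in the fits with fewer were among the 39, and none was lower. Over all genes, 2350 were higher and 2740 lower, 3633 higher with library totals, 899 and 1491 by DESeq2, 1281 and 1667 without the diet term, and 372 to 795 and 516 to 1323 with a library left out. For diet, 317 were higher and 374 lower, 198 higher with DESeq2 size factors, 522 and 636 with no filter, 72 and 114 by DESeq2, and 0 and 0 by edgeR without the fraction term (149 genes at an unadjusted p under 0.05) or with any library left out (86 to 159). No member was called for diet in any fit, at most 1 having an unadjusted p under 0.05. The members' fraction median of 0.51 was 0.70 with library totals, 0.52 with DESeq2 size factors, 0.49 in HFD and 0.48 in control libraries, and 0.49 to 0.54 with a library left out. With library totals it was 0.70 within HFD and 0.65 within control. Their diet median of -0.04 was -0.04 by DESeq2, -0.03 without the fraction term, -0.05 in GFP-low, and -0.29 to 0.25 with a library left out, turning to 0.17 without HFD GFP-low and 0.25 without control GFP-high, where the 3 libraries left are unequal in fraction. Cdca3 by fraction turned from -0.01 to 0.19 with library totals and 0.00 with DESeq2 size factors. The labels give no replicate numbers, so the only block is the term for the other factor, which pairs the fractions within a diet and whose removal is given above.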
